A study of Mus musculus with 1 sample.

Results

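The mRNAs of the eukaryotic translation initiation factors (Eif genes) and elongation factors (Eef genes) were examined for the length and the end of their poly(A) tails in wild-type mouse cells. Members were all protein-coding genes of the GENCODE vM21 annotation whose symbol starts with Eif or Eef followed by a digit, which gave 68 genes, 55 Eif and 13 Eef. Of these, 57 genes (49 initiation and 8 elongation) had at least 10 reads and entered the comparison, out of 7146 nuclear genes that reached that number. The cells were embryonic stem cells (ESCs) of the ICR strain, 24 h into differentiation to epiblast-like cells (EpiLCs), without any deletion, grown on Matrigel in N2B27 medium with activin A, bFGF and KSR. Tails were read by PAIso-seq, which copies each transcript together with its tail into circular cDNA and reads it repeatedly on the PacBio platform. A single wild-type sample was analysed, and it holds 2 barcoded replicates. The study calls its replicates independent, but neither it nor the labels say whether these came from separate cultures, so the spread between them may be technical. Cnot8 knockout cells, with which the study compared the wild type, were not analysed here.

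Initiation factors bring the initiator tRNA and the small ribosomal subunit to the capped 5′ end of an mRNA and find the start codon. Elongation factors then deliver aminoacyl-tRNAs to the ribosome and move it along the message. The poly(A) tail is bound by poly(A)-binding protein, which contacts eIF4G at the cap, and its shortening by deadenylases is a usual first step of mRNA decay. Some mRNAs of the translation machinery begin with a 5′ terminal oligopyrimidine (TOP) tract, through which their translation follows growth signals.

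Reads with at least 7 passes and a gene numbered 301522 in replicate 1 and 501984 in replicate 2, and 246316 and 455660 of them came from nuclear genes. The translation factors took 18470 of these reads. Markers shared by naïve and formative pluripotency were all detected (4 of 4 genes, 85 to 303 reads each), as were those of the formative state (4 of 4 genes, 37 to 299 reads). Of 7 naïve markers 6 had reads, with 501 for Zfp42, 40 for Esrrb and at most 12 for each of the others. Of primitive endoderm, mesoderm and fibroblast markers, 2 of 8 had any read, with 3 reads in total. The tail length of a gene is the geometric mean of the tails of its reads in nt, counting every base of the tail. It was computed in each replicate and over the pooled reads, and SD is that of the 2 replicate values.

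A few tails of factor mRNAs are printed to show what was read, because the last base is a feature of the short tails compared further on. For the 6 members with most T-ended tails of 6 to 30 nt, the sequences are the T-ended tails with the most passes in each replicate. They run from 5′ to 3′ as cDNA, so that a T stands for a U of the mRNA, and the capitals mark the T bases at the 3′ end.
Eif3a, replicate 1: aaaaaaaaaaaaaaTT
Eif3a, replicate 2: aaaaaaaaaaaaaaaaaaaaaaaaaaaT
Eif4g2, replicate 1: aataaaaaaaaaaaaaaaaaaaaT
Eif4g2, replicate 2: aaaaaaaaaaaaaaaaaaaT
Eif2s2, replicate 1: aaaaaaaaaaaaaaaaaaaaaaaaaT
Eif2s2, replicate 2: aaaaaaaaaaaaaaaaT
Eif4b, replicate 1: aaaaaaaaaaaaaT
Eif4b, replicate 2: aaaaaaaaaaaaaaT
Eif3c, replicate 1: aaaaaaaaaaaaaaaaaTT
Eif3c, replicate 2: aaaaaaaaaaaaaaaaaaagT
Eif4e, replicate 1: aaaaaaaaaaaaaTT
Eif4e, replicate 2: aaaaaaaaaaaaaaaaaaaaaT

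Translation factor mRNAs as a whole had tails close to those of other genes. The median gene tail was 77.8 nt over the 57 genes, with 78.5 nt in replicate 1 and 79.8 nt in replicate 2. Over all 7146 genes it was 76.4 nt, with 78.0 nt and 76.8 nt. The difference between the factors and all genes was 1.78 ± 1.75 nt (SD, n = 2), about the size of the spread between replicates. Above the median of all genes lay 32 of the 57 factors, where 50.0% is the share of all genes by definition, and 37 of the 57 lay between the quartiles of all genes. Single factors nevertheless ranged widely, from 44.8 nt for Eef1g to 108 nt for Eif5a.

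**Figure D1:**
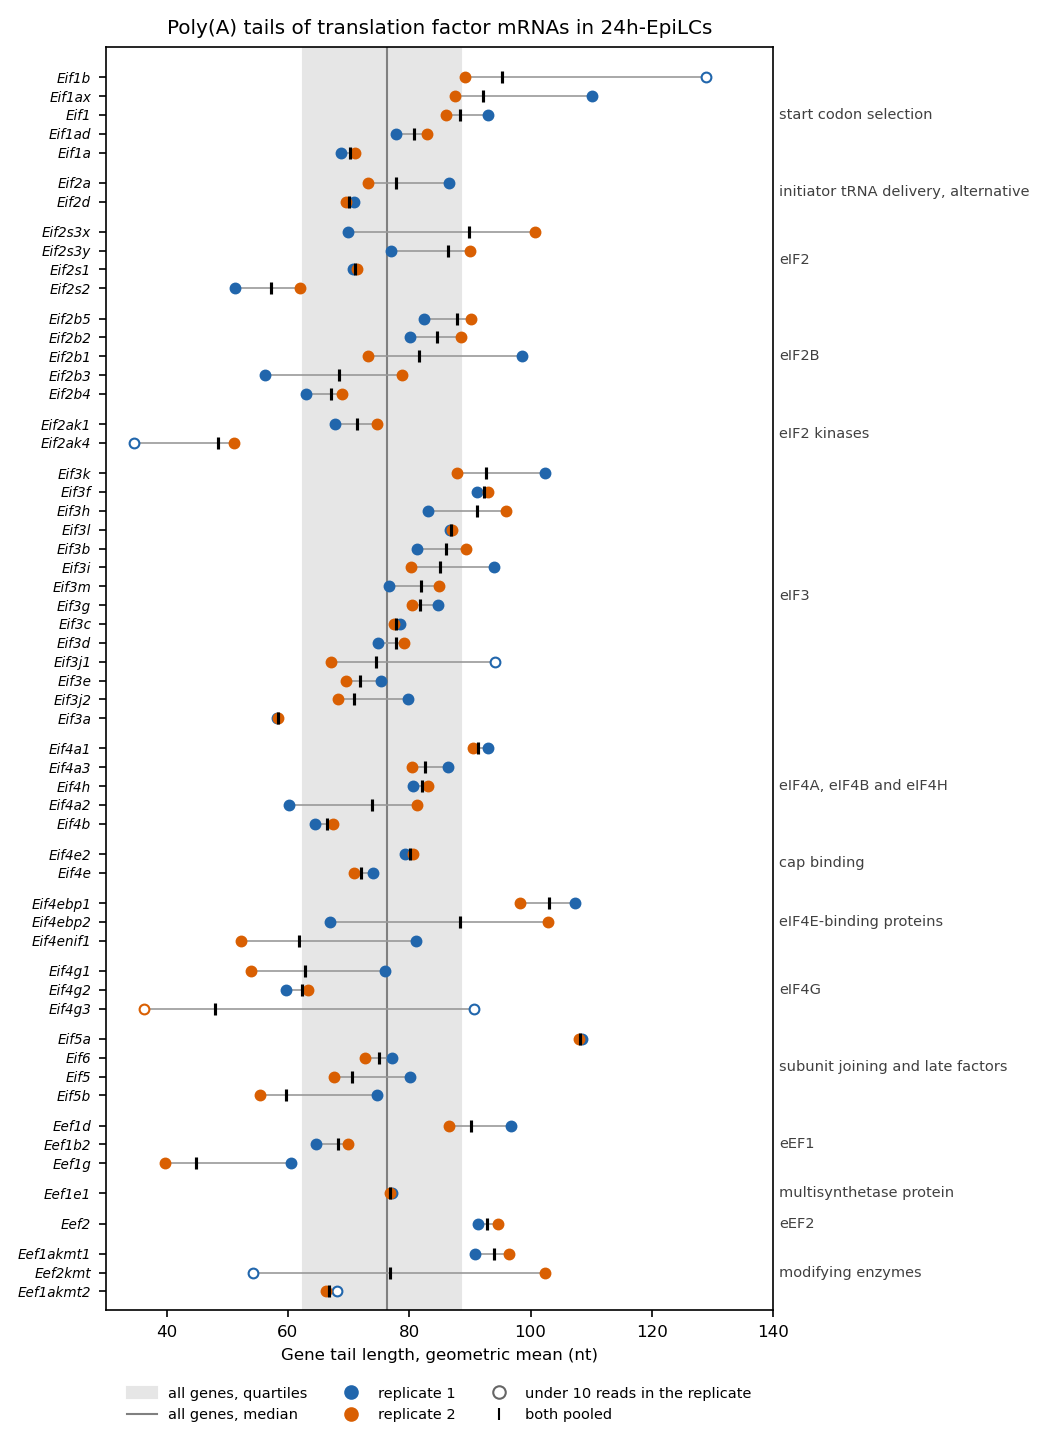
Gene tail length (geometric mean, nt, horizontal axis) of the 57 factor genes with at least 10 reads, ordered by role, in replicate 1 (blue), replicate 2 (orange) and pooled (black tick); open circles have under 10 reads in that replicate, and the grey band and line are the quartiles and median of all genes, pooled. Eif5a, at 108 nt in both replicates, and Eif3a, at 58.2 and 58.3 nt, lie far apart with close replicate values, whereas genes with few reads such as Eif4g3 are spread widely.

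A gene was called long or short only if it had at least 10 reads in each replicate and lay beyond the same quartile of such genes in both. Among all 4286 such genes, 12.8% were below the lower quartile in both replicates and 14.0% above the upper quartile in both. Of the 51 factors that could be called, 4 were short in both, namely Eif4g2, Eif3a, Eif2s2 and Eef1g. Another 6 were long in both, namely Eif5a, Eif4ebp1, Eef1akmt1, Eef2, Eif3f and Eif4a1. These counts, 7.84% and 11.8% of the factors, are no higher than the shares of all genes. They depended on the processing, and with tails of at least 15 nt alone 8 factors were short and 3 long. Several long calls lay close to the upper quartile of 90.37 nt, which was the same in both replicates. Eif4a1 had 90.46 nt in replicate 2. In replicate 1, Eef1akmt1 had 90.83 nt, Eif3f 91.20 nt and Eef2 91.37 nt.

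Initiation and elongation factors could not be told apart by tail length. The median gene tail was 77.9 nt over 49 initiation factor genes (78.5 and 79.8 nt in the replicates) and 76.9 nt over 8 elongation factor genes (84.0 and 81.7 nt). From the pooled reads, the elongation median minus the initiation median was -1.01 nt, but in the single replicates it was 5.43 and 1.93 nt, a mean of 3.68 ± 2.48 nt (SD, n = 2). The sign therefore depended on how the replicates were combined, and fewer elongation genes reached 10 reads in replicate 1 (6) than in replicate 2 (8). Over transcripts rather than genes, the median was 87 nt for the 16108 reads of initiation factors and 94 nt for the 2362 reads of elongation factors, of which 1374 were Eef2. The core factors leave out kinases, eIF4E-binding proteins, modifying enzymes, Eif1ad, Eif4a3 and Eef1e1. Restricted to them, the medians were 77.9 nt for 42 initiation genes and 79.3 nt for 4 elongation genes. Those 4 elongation genes alone ran from 44.8 to 92.8 nt.

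**Figure D2:**
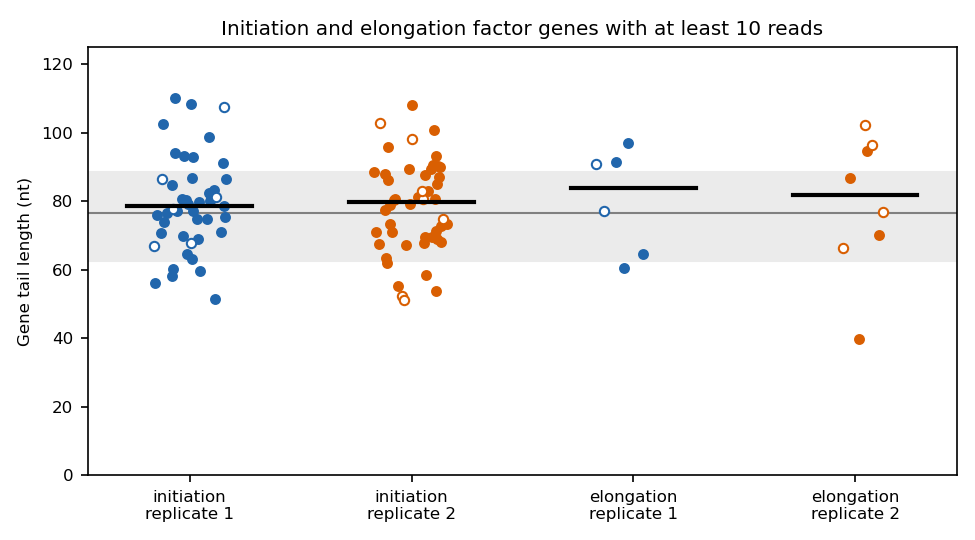
Tail length (nt, vertical axis) of each initiation and elongation factor gene with at least 10 reads in the replicate shown. Filled circles are core factors, open circles are all other members and black bars are medians. The grey line and band are the pooled median and quartiles of all genes. The medians of 78.5 and 79.8 nt for initiation and 84.0 and 81.7 nt for elongation lie within the scatter of the genes.

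The elongation factors differed strongly from one another. Eef2 (ENSMUSG00000034994, GRCm38 chromosome 10, 81176631 to 81182498) encodes the GTPase that translocates the ribosome. Its tails had 91.4 nt in replicate 1 (750 reads) and 94.6 nt in replicate 2 (624 reads), above the upper quartile of all genes both times. Eef1b2 encodes the nucleotide exchange subunit of eEF1B, and its tails were shorter, at 64.7 nt in replicate 1 (144 reads) and 70.0 nt in replicate 2 (334 reads). The difference between Eef1b2 and Eef2 was -25.7 ± 1.49 nt (SD, n = 2), far beyond the replicate spread. Eef1d, a second exchange subunit of the same complex, had 96.8 nt in replicate 1 (88 reads) and 86.6 nt in replicate 2 (155 reads). Eef1b2 was thus lower than Eef1d in each replicate, by -32.2 and -16.6 nt. For Eef1e1, a protein of the multisynthetase complex that carries an elongation factor name, the values were 77.1 nt in replicate 1 (37 reads) and 76.8 nt in replicate 2 (58 reads), at the middle of all genes. Among the enzymes that methylate elongation factors, Eef1akmt1 was long at 90.8 nt in replicate 1 (26 reads) and 96.4 nt in replicate 2 (33 reads). For Eef2kmt and Eef1akmt2 at least 1 replicate had under 10 reads, and their pooled values were 76.9 and 66.8 nt.

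Eef1g, a structural subunit of eEF1B, had the lowest pooled value of all 57 genes, but from few reads. Its gene (ENSMUSG00000071644, GRCm38 chromosome 19, 8967041 to 8978479) had 60.5 nt in replicate 1 (16 reads) and 39.7 nt in replicate 2 (40 reads). The replicates differed by more than most members, and 7 of the 56 tails (12.5%) were only 1 to 5 nt long, all of them in replicate 2. Without tails under 6 nt its pooled value was 75.4 nt, where the median of all genes was 81.2 nt, so the low pooled value rests largely on those 7 reads. Most reads that resemble Eef1g were assigned elsewhere. The processed pseudogene Gm4366 (ENSMUSG00000107383, GRCm38 chromosome 7, 116824510 to 116825851), whose annotated transcript is 99.6% identical to that of Eef1g, held 1358 reads, or 96.0% of the reads of both. Its tails were 86.1 nt in replicate 1 (449 reads) and 89.8 nt in replicate 2 (909 reads), with no tail of 1 to 5 nt (Wilson interval up to 0.282%). Counted together, Eef1g and Gm4366 gave 85.1 and 86.8 nt, and Eef1g was then no longer short. From which of these loci a read was transcribed cannot be told apart here, so the value of Eef1g is uncertain.

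**Figure D3:**
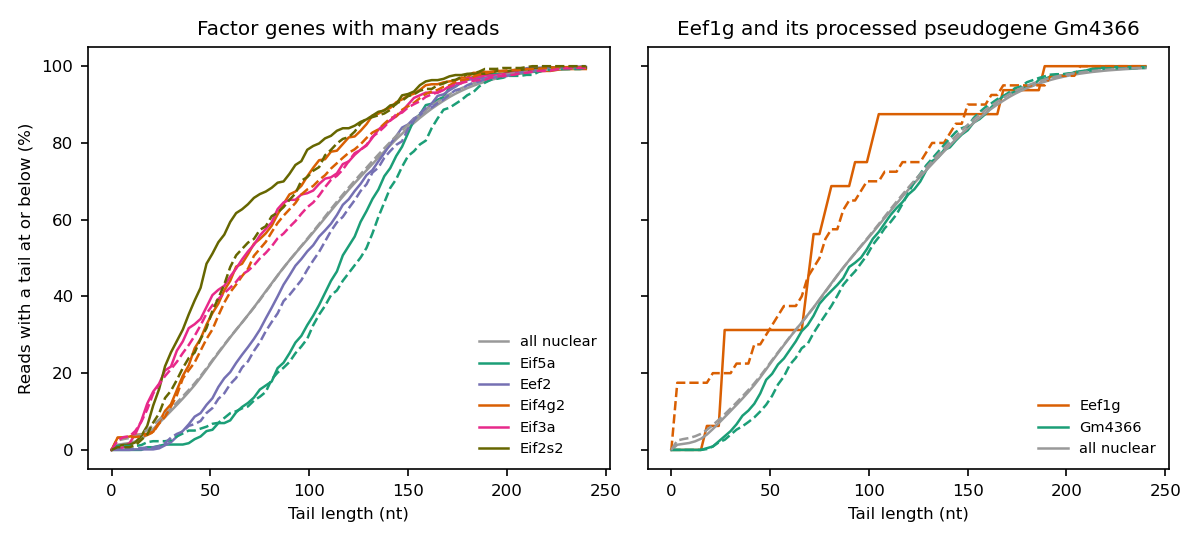
Percentage of reads with a tail at or below a given length (nt), for 5 factor genes with many reads (left) and for Eef1g and its processed pseudogene Gm4366 (right), with all nuclear reads in grey; solid lines are replicate 1 and dashed lines replicate 2. At 90 nt the curves of Eif5a and Eef2 lie below that of all reads (49.4% in both replicates) and those of Eif2s2, Eif3a and Eif4g2 above it, though some curves cross it at shorter or longer tails, and the dashed Eef1g curve starts with 17.5% of reads at 1 to 5 nt whereas Gm4366 has none.

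Eef1a1, which encodes the eEF1A protein that carries aminoacyl-tRNA to the ribosome, fell just under the read minimum with 9 reads. In replicate 1 its tails were 5 and 80 nt long, and in replicate 2 they were 1, 1, 1, 1, 1, 56 and 80 nt long. Tails of 1 to 5 nt thus made up 6 of 9 (Wilson interval 35.4% to 87.9%), and no gene value is given. Its pseudogene Gm13456 held another 4 reads. The gene has many further near-identical copies in the mouse genome. By the methods, the alignment was set to report no secondary alignments. How a read that maps equally well to several copies was placed is not given in the sources used here. Eif2ak2 also had 9 reads, and just inside the minimum stood Eif4g3 with 13 and Eif3j1 with 16. Of the remaining members without a value, Eif2ak3 had 4 reads, Eef2k and Eif5a2 had 2 each and Eef1akmt4 had 1. Eef1a2, Eef1akmt3, Eif4e1b, Eif4e3 and Eif4ebp3 had 0 reads, which allows a share of up to 0.00122% of nuclear reads in replicate 1 and 0.000658% in replicate 2.

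Pseudogenes also held reads that resemble other factors. Of 727 pseudogenes with reads, 11 had a member as their closest protein-coding transcript, with 2082 reads for 10 members. Eif4a-ps4 had 300 reads with a tail of 95.6 nt, near the 91.4 nt of Eif4a1, and adding them moved Eif4a1 to 92.5 nt. Gm43712, closest to Eef1b2, had 222 reads and 85.8 nt, above the 68.3 nt of Eef1b2. Eef1b2 with those reads came to 73.5 nt, still below Eef2. For Gm7658, the copy of Eif3m, 97 reads gave 97.0 nt against 81.9 nt of Eif3m, and for Gm2223, the copy of Eif2s3x, 61 reads gave 101 nt against 89.9 nt. The 5 copies with most reads, Gm4366 included, thus all had higher pooled values than their closest member. For Gm9892, the copy of Eif2s2, 30 reads gave 47.3 and 63.3 nt in the replicates, below Eif2s2 in replicate 1 and above it in replicate 2. In addition, 11 members overlap, on either strand, a gene with at least 10 reads of its own, among them Eef1b2, Eif4a2, Eif2a, Eif2b4, Eif1ad, Eif2ak1 and Eif4enif1. Whether strand was used in counting is not given in the sources used here, so reads of such partners may be mixed.

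The 14 genes of eIF3, the large scaffold that holds the small ribosomal subunit during initiation, had gene tails with a median of 81.8 nt, and 10 of them were above the median of all genes. Eif3a was the lowest, and the others ran from 71.0 nt for Eif3j2 to 92.6 nt for Eif3k in the pooled reads. Eif3a (ENSMUSG00000024991, GRCm38 chromosome 19, 60761117 to 60790658) encodes the largest subunit, and its tails had 58.2 nt in replicate 1 (290 reads) and 58.3 nt in replicate 2 (1050 reads), short in both replicates. The closeness of these values depended on tails of 1 to 5 nt, which made up 0.345% of its reads in replicate 1 and 3.24% in replicate 2. Without tails under 6 nt its values were 59.1 and 65.9 nt, where the pooled median of all genes was 81.2 nt. With tails of at least 15 nt alone its pooled value was 69.2 nt, near the 71.96 nt of Eif3e, so its distance from the other subunits depended on the shortest tails. Eif3k, a small peripheral subunit, was at the other end with 102 nt in replicate 1 (49 reads) and 88.0 nt in replicate 2 (96 reads). The difference of Eif3a from Eif3k was -36.9 ± 10.3 nt (SD, n = 2). Eif3f, a subunit with an MPN domain, had 91.2 nt in replicate 1 (40 reads) and 93.0 nt in replicate 2 (73 reads), and it was long in both replicates. Eif3h, its MPN-domain partner, had 83.1 nt in replicate 1 (106 reads) and 95.9 nt in replicate 2 (195 reads). Its replicates differed by more than those of Eif3f, so the order of the pair was not resolved.

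The other eIF3 genes lay between the quartiles or near the upper one. Eif3l, the partner of Eif3k in the complex, had 86.8 nt in replicate 1 (219 reads) and 87.1 nt in replicate 2 (368 reads), an SD of 0.23 nt. Eif3b, the subunit that with Eif3g and Eif3i forms a module at the mRNA entry side, had 81.3 nt in replicate 1 (306 reads) and 89.3 nt in replicate 2 (459 reads). Eif3g had 84.7 nt in replicate 1 (160 reads) and 80.5 nt in replicate 2 (354 reads), and the 3 genes of that module thus did not separate, with Eif3i at 94.0 nt in replicate 1 (36 reads) and 80.4 nt in replicate 2 (64 reads). For Eif3c, an octamer subunit that contacts eIF1 and eIF5, the values were 78.5 nt in replicate 1 (170 reads) and 77.5 nt in replicate 2 (312 reads). For Eif3d, the subunit that can itself bind the cap, they were 74.9 nt in replicate 1 (238 reads) and 79.2 nt in replicate 2 (507 reads). Both lay close to the median of all genes. Eif3m had a pooled value of 81.9 nt and Eif3e of 72.0 nt. Of the paralogues of the loosely bound subunit eIF3j, Eif3j2 had 79.8 nt in replicate 1 (68 reads) and 68.2 nt in replicate 2 (201 reads). Eif3j1 had only 5 and 11 reads and 74.6 nt pooled, so the pair could not be ordered.

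The subunits of eIF2, the GTPase that carries the initiator tRNA, were not alike. Eif2s2 (ENSMUSG00000074656, GRCm38 chromosome 2, 154871410 to 154892935), the β subunit, was short in both replicates with 51.3 nt in replicate 1 (303 reads) and 62.0 nt in replicate 2 (422 reads). Eif2s1, the α subunit whose phosphorylation shuts down initiation, had 70.7 nt in replicate 1 (158 reads) and 71.3 nt in replicate 2 (242 reads). It exceeded Eif2s2 by 19.5 nt in replicate 1 and 9.34 nt in replicate 2, 14.4 ± 7.15 nt (SD, n = 2). The γ subunit is encoded by the paralogues Eif2s3x and Eif2s3y on the X and Y chromosomes. Eif2s3x had 69.9 nt in replicate 1 (14 reads) and 101 nt in replicate 2 (31 reads), and Eif2s3y had 77.0 nt in replicate 1 (41 reads) and 89.97 nt in replicate 2 (114 reads). The X-linked gene was lower in replicate 1 and higher in replicate 2, so their order was not resolved. Gm2223, the pseudogene identical in sequence to Eif2s3x, held 61 reads, and with these Eif2s3x came to 88.98 and 101.2 nt, above Eif2s3y in both replicates. The order of the pair thus depended on which locus the reads were given to.

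Of eIF2B, the complex that recharges eIF2 with GTP, all 5 genes lay between the quartiles of all genes in the pooled reads. Eif2b5, the catalytic subunit, had most reads and 82.5 nt in replicate 1 (185 reads) and 90.2 nt in replicate 2 (432 reads). The other 4 pooled values were 84.6 nt for Eif2b2, 81.6 nt for Eif2b1, 68.4 nt for Eif2b3 and 67.1 nt for Eif2b4. Their order is not firm, since Eif2b1 and Eif2b3 moved by over 20 nt between replicates in opposite directions. The kinases of eIF2 were measured in part. Eif2ak1, the heme-regulated kinase, had 67.7 nt in replicate 1 (31 reads) and 74.6 nt in replicate 2 (38 reads). Eif2ak4, the amino acid sensor GCN2, had 3 and 19 reads and a pooled 48.4 nt. Eif2a and Eif2d, which can deliver tRNA without eIF2, had 77.9 and 70.1 nt pooled.

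Among the factors at the cap, Eif4a1 and Eif4ebp1 were long in both replicates and Eif4g2 was short in both. Eif4a1 (ENSMUSG00000059796, GRCm38 chromosome 11, 69666936 to 69672423), the main RNA helicase of the complex, had 93.1 nt in replicate 1 (290 reads) and 90.5 nt in replicate 2 (525 reads) and was long in both. Its paralogue Eif4a2 had 60.3 nt in replicate 1 (45 reads) and 81.3 nt in replicate 2 (96 reads), and Eif4a3, the helicase of the exon junction complex, had 86.4 nt in replicate 1 (145 reads) and 80.5 nt in replicate 2 (238 reads). Eif4a1 exceeded Eif4a3 by 6.69 and 9.98 nt, 8.34 ± 2.32 nt (SD, n = 2), and it exceeded Eif4a2 by 32.8 and 9.19 nt, a difference of uncertain size. Eif4b, which stimulates the helicase, was lower at 64.5 nt in replicate 1 (208 reads) and 67.5 nt in replicate 2 (419 reads). Eif4h, a smaller protein that acts on the same helicase, had 80.6 nt in replicate 1 (137 reads) and 83.0 nt in replicate 2 (220 reads). Both values of Eif4h thus lay above both of Eif4b.

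Eif4e, the cap-binding protein, had 74.0 nt in replicate 1 (101 reads) and 70.9 nt in replicate 2 (187 reads). Eif4e2, a repressive paralogue, had 79.3 nt in replicate 1 (77 reads) and 80.7 nt in replicate 2 (113 reads). The value of Eif4e minus that of Eif4e2 was -7.52 ± 3.16 nt (SD, n = 2), in the same direction both times. Of the inhibitors that compete with eIF4G for eIF4E, Eif4ebp1 (ENSMUSG00000031490, GRCm38 chromosome 8, 27260329 to 27276674) was long with 107 nt in replicate 1 (87 reads) and 98.2 nt in replicate 2 (74 reads). Eif4ebp2 had 66.9 nt in replicate 1 (30 reads) and 103 nt in replicate 2 (55 reads), the widest gap between replicates among the 51 genes. The paralogues could therefore not be ordered. Eif4enif1, which carries eIF4E into the nucleus, had a pooled 61.8 nt from 19 and 31 reads.

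The 3 eIF4G genes all lay below the median of all genes in the pooled reads. Eif4g2 (ENSMUSG00000005610, GRCm38 chromosome 7, 111067750 to 111083030), a relative of eIF4G that lacks the eIF4E site, had the most reads of any member and 59.6 nt in replicate 1 (404 reads) and 63.4 nt in replicate 2 (1214 reads). It was short in both replicates. Eif4g1 (ENSMUSG00000045983, chromosome 16, 20668313 to 20692884), the scaffold that joins cap, helicase and tail, had 76.1 nt in replicate 1 (49 reads) and 53.8 nt in replicate 2 (61 reads). Its replicate values lay on both sides of those of Eif4g2, so the pair did not differ beyond the spread. Of the Eif4g1 tails, 5.45% had 1 to 5 nt, and without tails under 6 nt its pooled value was 78.4 nt, where the median of all genes was 81.2 nt. Eif4g3 had 4 and 9 reads and a pooled 48.0 nt, too few for a statement.

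Factors of start codon selection were mostly above the median of all genes. Eif1, the guardian of start codon accuracy, had 93.0 nt in replicate 1 (56 reads) and 86.1 nt in replicate 2 (106 reads). Its paralogue Eif1b had only 3 and 14 reads and 95.2 nt pooled. The paralogues for eIF1A, which binds the ribosomal A site, differed in both replicates. Eif1a had 68.8 nt in replicate 1 (100 reads) and 71.0 nt in replicate 2 (187 reads), whereas X-linked Eif1ax had 110.2 nt in replicate 1 (47 reads) and 87.5 nt in replicate 2 (159 reads). The difference was -41.4 and -16.5 nt, -28.9 ± 17.6 nt (SD, n = 2), so that its direction was shared by the replicates but its size was not well determined. Reads of such close paralogues may be split between them by the mapping, which was not tested.

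Factors that act at subunit joining and later included the gene with the longest tails of the family. Eif5a (ENSMUSG00000078812, GRCm38 chromosome 11, 69916714 to 69921958) is the hypusine-bearing protein that, despite its name, acts mainly when ribosomes stall in elongation and at termination. Its tails had 108 nt in replicate 1 (286 reads) and 108 nt in replicate 2 (397 reads), with a median tail of 122 nt, and its SD was 0.324 nt. It was the highest of all 57 genes. Counting Eif5a as an elongation factor, with Eif6 left out, gave a difference between elongation and initiation of -0.995 nt. Eif5, the GTPase activator of eIF2, had 80.1 nt in replicate 1 (145 reads) and 67.7 nt in replicate 2 (437 reads). Eif5b, the GTPase that joins the subunits (ENSMUSG00000026083, chromosome 1, 37998010 to 38055579), had 74.7 nt in replicate 1 (65 reads) and 55.3 nt in replicate 2 (197 reads). Its tails of 1 to 5 nt made up 5.34%, and without tails under 6 nt it came to 74.5 nt, where the median of all genes was 81.2 nt. Eif6, which keeps the ribosomal subunits apart, had 77.2 nt in replicate 1 (236 reads) and 72.6 nt in replicate 2 (208 reads), near the middle of all genes.

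Tails of factor genes tended to be shorter where the annotated transcript was longer. Over the 57 genes, the rank correlation of gene tail with the longest annotated transcript was -0.473, and over all 7146 genes it was -0.390. With only tails of 6 nt or more, it was -0.412 for the factors and -0.287 for all genes. Both are correlations across genes of the same libraries, which are not independent replicates, and no test was made. The 14 factor genes with a transcript of at least 4000 nt had a median of 66.7 nt, and 2 of them were above the median of all genes. The other 43 had 81.8 nt, and 30 of them were above it. Eif4g2, Eif5b, Eif4g1 and Eif3a, with transcripts of 7995, 7797, 5638 and 5125 nt, were low, whereas Eif1ax, with 5172 nt, was high. The annotated length need not be that of the molecules read, and the part of cDNA length in the measured tails was not tested.

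**Figure D4:**
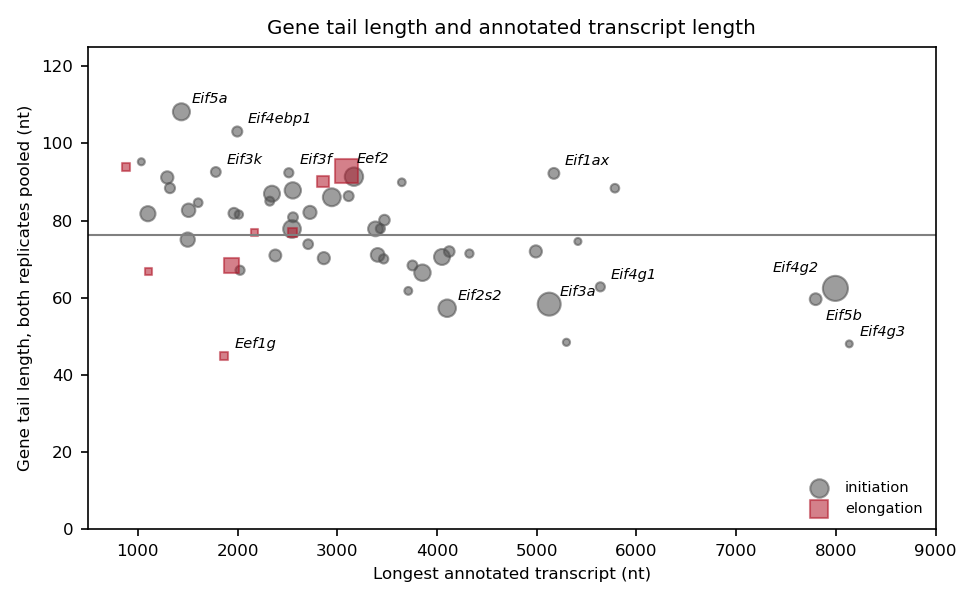
Pooled gene tail length (nt, vertical axis) against the longest annotated transcript (nt, horizontal axis) for the 57 factor genes; circles are initiation and squares elongation factors, the area of a symbol grows with its reads, and the horizontal line is the median of all genes at 76.4 nt. Points fall to the right (rank correlation -0.473), with Eif5a at the upper left and Eif4g2, Eif5b and Eif4g3 at the lower right.

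Short tails of the factors ended in T at about the share seen over all nuclear reads, and Eif3a, the member with most of them, lay above it. In cells, terminal U bases are added to short tails by terminal uridylyltransferases, and such tails are known targets of decay. Among tails of 6 to 30 nt, 15.2% of all nuclear reads ended in T, 18.3% in replicate 1 and 13.4% in replicate 2. The share was 16.6% for the factors (253 of 1523 tails, Wilson interval 14.8% to 18.6%), 18.2% and 15.8% in the replicates. Of Eif3a, 68 of 249 such tails ended in T, or 27.3% (22.2% to 33.2%). The share of Eif3a was above that of all reads in each replicate, with 41.9% and 22.5%, though the replicates themselves were far apart. Without Eif3a the factors stood at 14.5% (12.7% to 16.6%), and the other eIF3 genes at 15.97% (12.2% to 20.6%), both with intervals that hold the share of all reads. Eif3a was picked out after its value was seen, and the intervals cover counting error only.

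The T-ended tails of Eif3a were also counted by the number of terminal T, which is 2 and 1 in the pair printed above. Of its 68 T-ended tails, 45 ended in exactly 2 T (66.2%), against 41.3% of such tails over all nuclear reads. The short tails of Eif3a were a little shorter than those of all genes, with a median of 19 nt against 22 nt within the 6 to 30 nt class. Within narrower classes the share of Eif3a was 40.6% against 24.9% at 6 to 15 nt and 22.7% against 13.2% at 16 to 30 nt. At 31 to 60 nt it was 3.44% against 3.03%, inside the interval of Eif3a (1.88% to 6.21%). The gap was thus seen in tails up to 30 nt.

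Of the other members examined, some were near the share of all reads, and others lay away from it on few tails. Eif4g2, Eif2s2, Eif4b, Eif3c and Eif4e were taken for their number of T-ended tails, and Eif2s1 and Eif3l without a fixed rule. Their intervals cover counting error only and test no difference from all reads or from each other. Eif4g2 had 17.4% (23 of 132), Eif2s2 11.9% (16 of 135) and Eif4b 17.5% (14 of 80). For Eif3c 13 of 44 tails ended in T, or 29.5% (18.2% to 44.2%), with an interval above the share of all reads. For Eif4e it was 11 of 44, with an interval (14.6% to 39.4%) that holds that share. The replicates were far apart in both, with 16.7% and 38.5% for Eif3c, and 7.14% and 33.3% for Eif4e. At the low end, Eif2s1 had 1 of 43 and Eif3l 0 of 24, which leaves Wilson intervals up to 12.1% and 13.8%, below the share of all reads. Tails of 6 to 30 nt made up 18.6% of the reads of Eif3a and 18.6% of those of Eif2s2, and 1.46% of those of Eif5a. Eif2s2 and Eif3a thus had like shares of short tails, while the Wilson intervals of their T-ended shares (7.43% to 18.4% for Eif2s2) did not overlap.

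**Figure D5:**
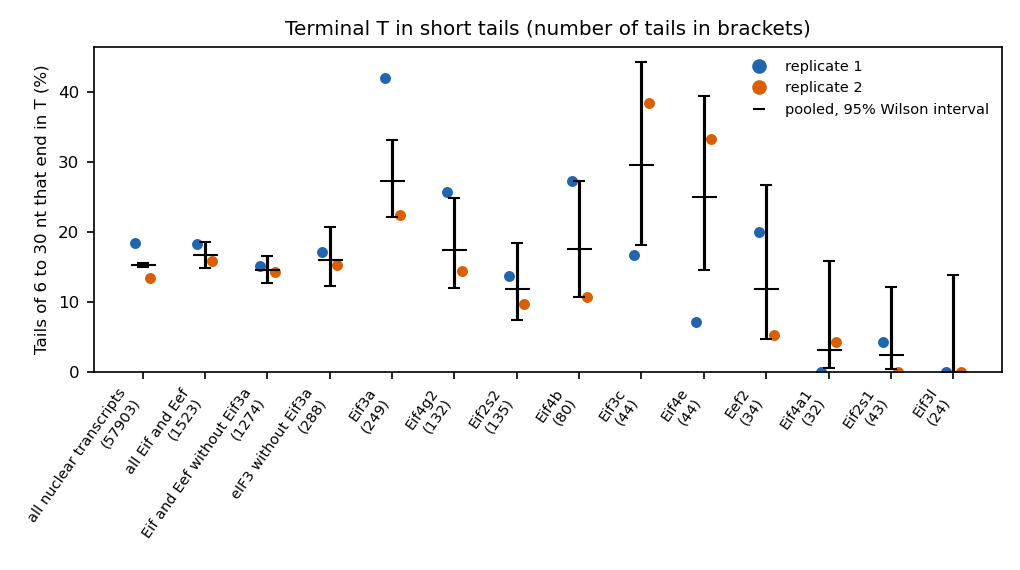
Percentage of tails of 6 to 30 nt that end in T (vertical axis) for all nuclear reads, groups of factors and single factors, with the number of tails in brackets; points are the replicates, and black bars are the pooled share with its 95% Wilson interval. Eif3a, at 27.3%, lies above all nuclear reads at 15.2%. Most other members shown have intervals that include that share, though that of Eif3c lies above it and those of Eif2s1 and Eif3l below. The members were chosen in part by their number of T-ended tails, so the intervals test no difference.

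Tails of 1 to 5 nt took a smaller share of factor reads than of all nuclear reads in both replicates. They made up 1.09% of factor reads (0.538% and 1.39% in the replicates) against 2.32% of all (1.52% and 2.75%). In 21 of the 57 genes no such tail was read, and in 10 the share was above that of all nuclear reads. The methods describe the removal of sequences with fewer than 4 A among the first 8 bases, yet 180 of the 201 factor tails of 1 to 5 nt held fewer than 4 A, among them all 7 of Eef1g. Why they are in the table is not given in the sources used here. Tails with any base other than A made up 12.1% and 9.47% of factor reads in the replicates, against 12.2% and 9.55% of all. Tails over 150 nt made up 14.2% against 15.6%. By the last 2 measures the factors were close to all reads.

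A chosen list of factor mRNAs known to begin with a TOP tract was set beside the core factors outside it. The list is not exhaustive, and genes outside it may begin with such a tract as well. The medians below are therefore not those of all factor mRNAs with and without the tract. The list held Eef1a1, Eef1b2, Eef1d, Eef1g, Eef2, Eif3e, Eif3f and Eif3h, of which 7 had at least 10 reads. Their median gene tail was 90.2 nt (83.1 and 86.6 nt in the replicates), and that of 39 core initiation factors outside the list was 77.8 nt (77.9 and 79.0 nt). Leaving aside Eef1g, whose 44.8 nt are uncertain, the TOP genes ran from Eef1b2 at 68.3 nt to Eef2 at 92.8 nt, and 4 of 7 were above the median of all genes. Of the 7, 2 were long in both replicates, against 14.0% of all genes, and 1 was short, against 12.8%. The short gene was Eef1g, which was no longer short once the reads of Gm4366 were counted with it. Cytosolic ribosomal protein genes, which begin with a TOP tract as well, had a median of 89.7 nt over 70 genes (92.4 and 86.4 nt), with 56 above the median of all genes. Of 53 that could be called, 16 were long in both replicates (30.2%, against 14.0% of all genes) and 1 was short (1.89%, against 12.8%). Reads of ribosomal protein pseudogenes were not added, and their part in these values was not tested.

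Other genes of translation were also examined. Of 24 further translation factors, 21 had at least 10 reads, with a median gene tail of 73.8 nt (76.6 and 64.9 nt) and 10 above the median of all genes. The list mixes cytosolic factors with mitochondrial ones, so its median is not that of cytosolic factors alone. The lowest pooled values among the 21 were mitochondrial, with 20.5 nt for Mtif3, 35.1 nt for Gfm2 and 42.1 nt for Mtrf1. These values rest on 14 to 25 reads per gene, with only 4 to 6 in replicate 1. Their replicates were far apart, with an SD of 20.1, 22.6 and 24.1 nt. They are too uncertain for a statement on mitochondrial factors, and mitochondrial Gfm1 had 95.1 nt from 38 reads. The replicate medians of this list were further apart than those of the Eif and Eef genes, but they covered 11 genes in replicate 1 and 17 in replicate 2. They are thus medians of different sets of genes, and their gap is not a spread between replicates alone. The value in replicate 2 lay near the lower quartile of 64.3 nt. The release factors Etf1 and Gspt1 had 65.2 and 63.1 nt, and the poly(A)-binding proteins Pabpc1 and Pabpc4 had 72.3 and 97.0 nt. The 20 cytosolic aminoacyl-tRNA synthetases, which charge the tRNAs, had a median of 76.4 nt, with 10 above the median of all genes. None of the 11 other factors and 20 synthetases that could be called was long or short in both replicates. Among all genes that could be called, 14.0% were long and 12.8% short.

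The replicates lay closer together in tail length where a gene had more reads. The median gap between replicates was 6.94 nt over the 51 factors with at least 10 reads in each and 3.47 nt over the 22 with at least 100 in each, against 10.4 and 3.92 nt over all genes. For some members the number of reads moved between the replicates. Eef2 took 2.22 times as large a share of nuclear reads in replicate 1 (750 reads) as in replicate 2 (624 reads), whereas Eif3a took 1.96 times as large a share in replicate 2 (1050 reads) as in replicate 1 (290 reads). Their gene tails differed between replicates by 3.22 nt for Eef2 and 0.106 nt for Eif3a, and by 6.87 nt for Eif3a without tails under 6 nt. With bulk RNA, fewer cells with an mRNA and less of it per cell cannot be told apart, and a single pair of libraries gives no test of these read numbers.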

How the data were processed

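PAIso-seq reads of 1 wild-type sample at 24 h were used. The authors made circular consensus reads with ccs, sorted them by barcode, removed adapters and aligned them to mm10 with minimap2 2.17 (per the labels). They removed repetitive reads, took the bases clipped beyond the 3′ end of the alignment, extended into adjoining A tracts, as the tail, left out reads without one and, by their methods, sequences with fewer than 4 A among the first 8 bases, and gave each read its gene with featureCounts 2.0.1. The deposited table by the authors lists, for each read, its barcode, gene, passes, tail base counts and tail sequence, without normalization. Of the nuclear reads used here, 14683 had fewer than 4 A there, all in tails of 1 to 5 nt, and these were kept. By their methods, minimap2 was set to report no secondary alignments. How a read with several equal alignments was placed, and whether strand was used in counting, is not given in the sources used here. Replicates were numbered by barcode, since the labels do not say which is which.

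From this table, reads with at least 7 passes were kept, tail length was taken as all bases of the tail, and the gene value was the geometric mean over at least 10 reads. Of 12962 gene identifiers, 12955 were found in GENCODE vM21 (GRCm38), and mitochondrial genes were left out. The labels give 1 group, so no p-value was computed, and genes and reads were not treated as replicates. Comparisons rest on the values of the 2 replicates, on the quartiles of all genes, and on 95% Wilson intervals of shares, which cover counting error only because reads carry no molecular identifiers. Depth was 246316 and 455660 nuclear reads, and 3 reads are 0.00122% and 0.000658% of them. Pseudogene transcripts were aligned to all protein-coding transcripts with minimap2 2.31 (preset asm20), and a copy was assigned to a member when at least 80% of it aligned to that gene as its closest match with at least 90% identity. Genes named with values were the 12 members with most reads, the 5 longest and 5 shortest with at least 30 reads in each replicate, the eIF2, eIF3, eEF1 and eEF2 genes, and sets of paralogues. Other genes were named after their values were seen. The members, gene lists and rules were chosen with earlier results of these data known. Alternatives changed the pass filter, shortest tail, length measure, summary per gene, read minimum, membership and replicates, and counting reads of matching pseudogenes with their member was added after seeing the data. Scripts were tested on simulated tails. Computing used scipy 1.17.1, pandas 2.3.3 and numpy 2.4.6 under Python 3.11.15, and figures were drawn with matplotlib 3.10.9.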

Additional observations from a re-analysis of the deposited data

Results flagged for a closer look

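Reads that resemble a factor but were assigned to a pseudogene lie outside the comparison, and 8 such pseudogenes had more reads than the 3 that a count of 0 allows. Gm4366, closest to Eef1g, had 1358 reads, Eif4a-ps4, closest to Eif4a1, had 300, and Gm43712, closest to Eef1b2, had 222. Gm7658, closest to Eif3m, had 97 reads, Gm2223, closest to Eif2s3x, had 61, and Gm9892, closest to Eif2s2, had 30. Eif3s6-ps1, closest to Eif3e, had 6 and Gm13456, closest to Eef1a1, had 4. There were no control samples, and the locus that each read came from was not tested.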

How the results depend on the processing

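The difference between elongation and initiation factors, -1.01 nt in the pooled reads, changed sign with the processing. It was 1.52 nt without a pass filter, 6.89 nt with at least 15 passes, 3.12 nt with the arithmetic mean per gene, 10 nt with the median per gene, 3.43 nt with at least 10 reads in each replicate and 1.39 nt for core factors only. It was -3.61 nt with tails of at least 6 nt, and 1.93 to 5.43 nt when a replicate was left out. The cause was not tested. The difference between all factors and all genes, 1.46 nt, was -1.26 nt with tails of at least 15 nt, kept its direction or came to 0 in the other settings, and was 0.537 to 3.01 nt with a replicate left out. The count of 4 short genes became 7 with tails of at least 6 nt, 8 with tails of at least 15 nt, 7 with the arithmetic mean and 7 with the median. The count of 6 long genes became 3 with tails of at least 6 nt, with tails of at least 15 nt, with the arithmetic mean and with at least 5 reads. The counts of short and long genes need both replicates, so leaving one out gives none. Single genes were counted as moved when the tail changed by more than the replicate SD. For 6 genes a replicate had under 10 reads, and their SD was set to 0, so any change counted. The arithmetic mean moved 53 of 57 genes and the median 45. An arithmetic mean cannot lie below a geometric one, so its moves were all upward. Raising the shortest tail to 15 nt moved 18 genes, and raising it to 6 nt moved 13. The stricter pass filter moved 12, among them all 6 genes without an SD. Counting pseudogene reads in moved 2. Leaving out replicate 1 moved 5, all of them genes without an SD, and leaving out replicate 2 moved 8. No paired analysis was possible because the sample holds 1 group. With 2 replicates, an SD is itself poorly known. The depth of replicate 1 limits what can be said of the rarer factors.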

Other observations

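The share of nuclear reads also differed between the replicates for factors other than Eef2 and Eif3a. It was 2.175-fold higher for Eif4ebp1 and 2.10-fold for Eif6 in replicate 1. In replicate 2 it was 1.83-fold higher for Eif1ax, 1.64-fold for Eif5b and 1.62-fold for Eif4g2. Over the 51 factors with at least 10 reads in each replicate, the rank correlation of this ratio with the annotated transcript length was 0.123, and over all 4286 such genes it was 0.210.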
